A study of Mus musculus with 24 samples.

Results

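Reference genes are the transcripts against which a hippocampal expression value is usually scaled, on the premise that they vary little between animals. The signals of 9 of them were examined here: Actb, B2m, Gapdh, Gusb, Hprt, Tbp, Ppia, Ywhaz and Pgk1. They were chosen by name, and all probes that carried one of these symbols were taken, which gave 18 of the 39429 probes and 9 of the 19751 gene symbols on the array. Gapdh had 7 probes, Ywhaz 3 and Tbp 2, and each of the other genes had 1.

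RNA came from the hippocampus of mice of 4 groups, with 6 one-colour arrays per group and 24 in all. CD F1 mice were offspring of C57BL/6J males kept on the control diet (T.2918.12, Envigo) and 129S6/SvEv females, and MD F1 mice were offspring of males that received the methyl donor diet (3MS ZM), which adds methionine, choline, betaine, folic acid, vitamin B12 and zinc, for 6 weeks before mating. CD F2 and MD F2 mice descended from F1 males of either kind and CD F1 females, so that the labels call F1 congenic and F2 mixed C57BL/6J x 129S6/SvEv hybrids. All offspring ate the control diet themselves. Each array held a pool of 4 mice, aged 4 weeks by the labels, whereas the methods speak of adult offspring without an age for the arrays. The labels of F2 also carry a code, lh or rh, on 3 arrays of each diet group, and do not say what it means. Nothing says that the pools shared no litters, so that p-values measure only the spread between these pools.

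The 9 genes belong to separate cell functions. Actb encodes beta-actin of the cytoskeleton, and Gapdh and Pgk1 encode enzymes of glycolysis that act in consecutive steps. Hprt encodes an enzyme of purine salvage, Gusb a lysosomal hydrolase, B2m the light chain of MHC class I molecules, Ppia cyclophilin A, a prolyl isomerase, Ywhaz the zeta member of the 14-3-3 adaptor proteins, and Tbp the TATA-binding protein of the general transcription factor TFIID. Each is used as a standard in quantitative PCR because most cells of most tissues express it.

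The promoters of 7 of the 9 genes were found in the RefSeq table for GRCm38.p6; Actb and Ywhaz were not among them. The 60 bases before the annotated start are shown for 4 genes because they differ in the core promoter motifs they hold, with capitals marking, on either strand, the TATA box letters TATAAA, the GC box letters GGGCGG and the letters CCAAT of the CCAAT box. Hprt and Pgk1 lie on the X chromosome, B2m on chromosome 2 and Ppia on chromosome 11.
B2m, chr2:122147627-122147686, plus strand: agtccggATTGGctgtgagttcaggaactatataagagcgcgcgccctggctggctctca
Ppia, chr11:6415807-6415866, plus strand: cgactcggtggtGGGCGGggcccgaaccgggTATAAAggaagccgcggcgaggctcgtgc
Hprt, chrX:52988018-52988077, plus strand: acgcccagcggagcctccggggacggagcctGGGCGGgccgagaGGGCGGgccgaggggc
Pgk1, chrX:106187040-106187099, plus strand: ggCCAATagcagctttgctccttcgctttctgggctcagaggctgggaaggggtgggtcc
Over the whole 300 bases of each entry, GGGCGG was present in 4 of the 7 promoters and in 35.7% of all 32851 promoters of that length. TATAAA was present in 2 of 7 and in 13.6% of all, and CCAAT in 2 of 7 and in 37.4% of all. Hprt held 3 copies of GGGCGG and Pgk1 held 5, whereas Gusb and Gapdh held none of the 3 motifs. These matches describe the sequence only.

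The scale of the arrays differed between generations. The mean log2 signal of 8 spike-in probes, which report a control RNA added to every sample, was 13.28 ± 0.24 in F1 and 11.08 ± 0.37 in F2 (SD, n = 12 arrays each). They are the 8 of 10 such probes that were well above background on all arrays, of which 1 fell by 5.08 between generations and the other 7 by between 1.32 and 2.14, so that without it the mean fell by 1.79 in place of 2.20. The median intensity of an array ranged from 167 to 318 in F1 and from 148 to 262 in F2. The generations shared no slide, so generation, slide and scan cannot be told apart, whereas each slide held 2 arrays of each diet. MD F1 replicate 6 had the lowest median intensity in F1, and spots well above background were fewest on MD F2 replicate 3 (27383) and CD F2 replicate 6 (28000), beside 32809 to 37013 on the other arrays, and the main results are given without these 3 arrays where that changed them. All 12 hippocampal neuron markers were well above background on all 24 arrays. The summed intensity of 7 choroid plexus markers ran from 2578 to 346989 within CD F2 alone, and the part of such tissue in the values below was not tested. In bulk tissue, fewer cells of a type and less RNA per cell cannot be told apart.

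All 18 probes were well above background on all 24 arrays. None of their spots was flagged as saturated, but neither was any other spot of the arrays. The flag therefore cannot show whether the brightest signals were compressed. The signal of Actb (probe A_55_P2112737), as log2 of the processed intensity before any scaling between arrays, had its lowest, median and highest values at 18.30, 18.46 and 18.75 in CD F1 and at 17.88, 18.49 and 18.70 in MD F1. In CD F2 they were 17.60, 17.77 and 17.84, and in MD F2 17.57, 17.87 and 17.99. The highest value of Actb in F2 thus exceeded only the lowest of the F1 arrays, that of MD F1 replicate 6.

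Before normalization some arrays were the lowest or highest of their group for most of the 9 genes. CD F1 replicate 1 was the lowest of its group for 7 of the 9 genes, CD F2 replicate 4 for 7, and MD F1 replicate 6 for 5. CD F1 replicate 5 was the highest of its group for 5 genes and CD F2 replicate 3 for 6, whereas in MD F1 no array was the highest for more than 2. Quantile normalization gives all arrays of a fit the same distribution of signals. After it, no array of CD F2 was the lowest for more than 2 genes. MD F1 replicate 6 was still the lowest of its group for 5 genes, and it was the highest for 3 (Gusb, Tbp and Pgk1).

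**Figure D1:**
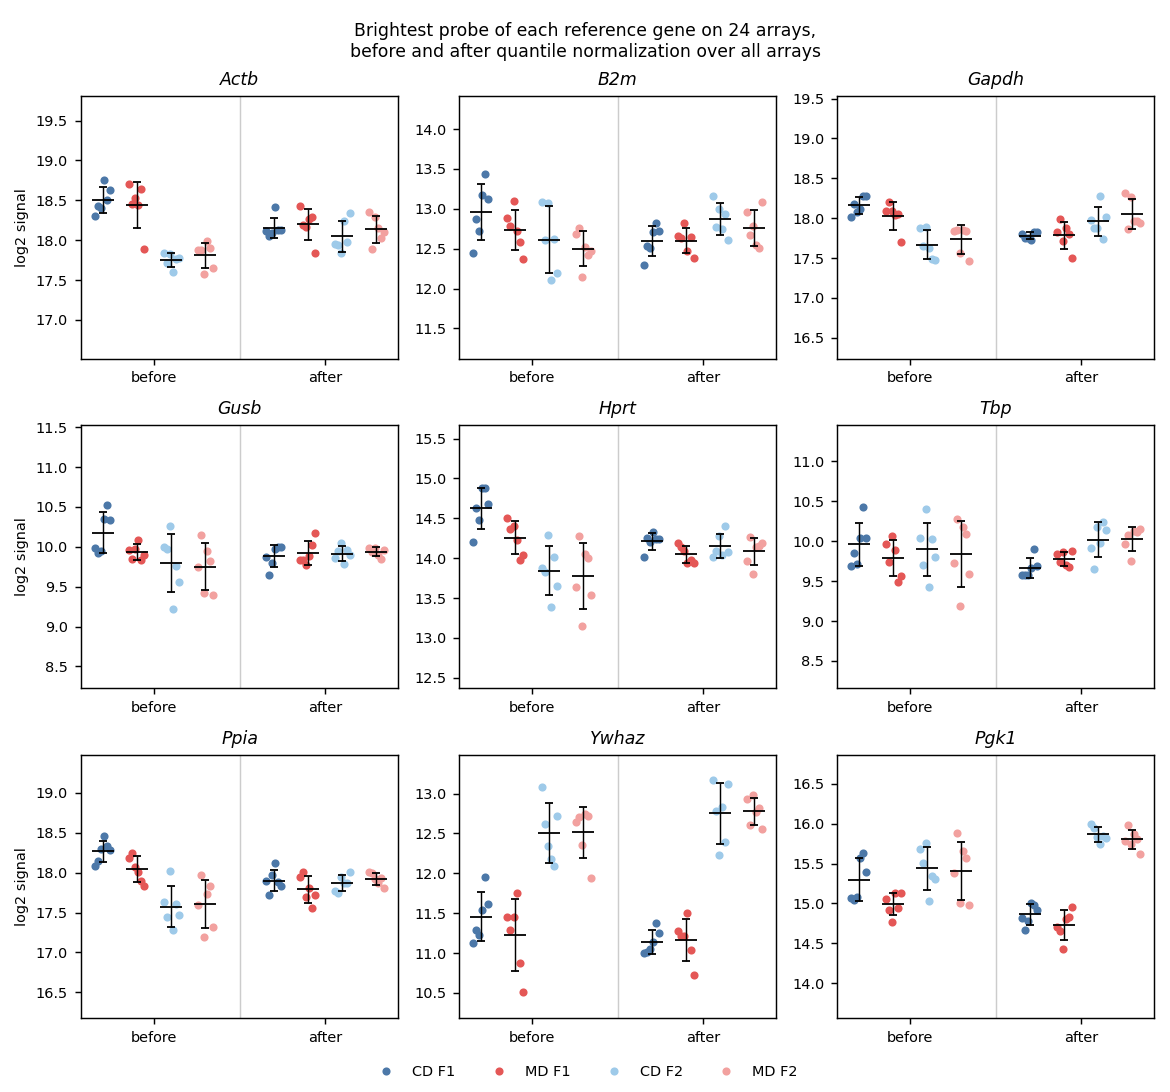
Log2 signal (y axis, each panel spanning the same range) of the brightest probe of each reference gene on every array, before normalization and after quantile normalization over all 24 arrays; points are arrays, coloured by group, and bars are the mean and SD of 6 arrays. Ywhaz and Pgk1 are the genes whose F1 and F2 arrays do not overlap after normalization, and for Actb the gap between generations seen before normalization is reduced to -0.08.

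The first question was whether paternal diet shifted a reference gene in F1. Before normalization all 18 probes had a lower mean in MD F1 than in CD F1, with a median difference of -0.23 (log2), beside -0.28 over all 39429 probes. 1 of the 18 probes passed the threshold (limma, Benjamini-Hochberg FDR under 0.1), beside 20.2% of all probes, and the same probe was the only one of the 18 whose groups did not overlap, beside 5.66% of all. It was a probe of Ywhaz (A_55_P1987245), with signals of 12.28, 12.52 and 12.75 in CD F1 (lowest, median, highest) and 10.29, 11.95 and 12.23 in MD F1, and it fell by 0.80 ± 0.27 (SE; FDR = 0.087). Without MD F1 replicate 6 the difference was -0.51 (FDR = 0.039), and the call held in 5 of the 12 fits that each left out 1 array. The brightest Hprt probe passed, as lower in MD F1, in 3 of those 12 fits and that of Pgk1 in 1, though neither did with all arrays. Over all probes the count of calls before normalization was just as unsteady: it was 7952 with all arrays, 0 without MD F1 replicate 2 and 13099 without CD F1 replicate 1.

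After quantile normalization none of the 18 probes passed the threshold in limma, beside 0.0279% of all probes (11). An unadjusted p under 0.05 was found for 3 of the 18, near the share of all probes (14.5%). The diet groups overlapped for all 18, beside 1.83% of all probes without overlap. For Actb the difference between MD F1 and CD F1 was 0.05 ± 0.10 (SE), for B2m 0.0020 ± 0.10, for Gapdh (brightest probe, A_55_P2186027) 0.01 ± 0.07, and for Gusb 0.04 ± 0.09. The 95% intervals reached from -0.17 to 0.27 for Actb and from -0.15 to 0.23 for Gusb, and differences within these limits cannot be told from 0 with 6 arrays per group. Ppia differed by -0.09 ± 0.08, Pgk1 by -0.14 ± 0.10, Ywhaz (brightest probe, A_66_P120770) by 0.03 ± 0.12 and Tbp (brightest probe, A_55_P2032034) by 0.12 ± 0.07.

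Of the 3 probes with a small unadjusted p, Hprt was the only one that stood for its gene. Its normalized signals were 14.31, 14.56 and 14.66 in CD F1 and 14.24, 14.34 and 14.51 in MD F1, so that the groups overlapped. The difference was -0.18 ± 0.07 (FDR = 0.31). The dimmer Tbp probe (A_51_P461828) differed by 0.37 ± 0.15 (FDR = 0.30), with MD F1 replicate 6 the highest array of its group at 7.09, and by 0.25 (FDR = 0.32) without that array. The Ywhaz probe named above differed by -0.54 ± 0.23 (FDR = 0.32), and by -0.31 (FDR = 0.20) without MD F1 replicate 6, which was the lowest array at 10.69.

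In F2 the grandfathers had received the diets. No reference probe passed the threshold in limma before or after normalization, beside 0% of all probes in both cases. None had an unadjusted p under 0.05, beside 1.39% of all probes before and 5.56% after normalization. The groups overlapped for all 18 probes, while 0.0304% of all probes before and 0.35% after normalization did not overlap. The median difference over the 18 probes between MD F2 and CD F2 was 0.01 after normalization, beside 0.01 over all probes. The 9 brightest probes differed by between -0.11 (B2m) and 0.09 (Gapdh). Gusb, with 9.63, 9.76 and 9.89 in CD F2 and 9.69, 9.79 and 9.83 in MD F2, was the tightest of them, and its difference was 0.02 ± 0.06. Actb differed by 0.08 ± 0.10, with a 95% interval from -0.14 to 0.31.

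The diet effect in F1 minus that in F2 was tested as an interaction over all 24 arrays. None of the 18 probes passed the threshold in limma after normalization, beside 0.0127% of all probes (5), or before it, beside 0%. An unadjusted p under 0.05 was found for 2 of them after normalization (8.21% of all probes) and for 1 before it (7.01%). The interaction was between -0.17 (Ppia) and 0.11 (B2m) for the brightest probes. It was -0.79 ± 0.27 (FDR = 0.44) for Ywhaz probe A_55_P1987245, and -0.56 ± 0.18 (FDR = 0.44) without MD F1 replicate 6.

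Between generations, Pgk1 and the brightest probe of Ywhaz were higher in F2, whereas Actb, Gusb, Hprt and Ppia did not differ past the threshold after normalization. After quantile normalization over 24 arrays, 14 of the 18 probes passed the threshold, beside 70.2% of all probes. Of these 14, 12 were higher in F2 (35.2% of all) and 2 lower (35% of all). The share of reference probes called was thus near that of all probes. All Gapdh probes were among the 12, so that 1 gene is counted many times. By the brightest probe of each gene, 5 of the 9 genes were higher and 0 lower. Ywhaz is among these 5 by a probe that is its brightest only through the F2 arrays. The arrays of the generations did not overlap for 7 of the 18 probes, beside 25.6% of all. These were the Pgk1 probe, the brightest Ywhaz probe and otherwise Gapdh probes. The 4 probes that did not pass were those of Actb, Gusb, Hprt and Ppia. Without the 3 arrays named above Actb passed as well, at -0.16 ± 0.06 (FDR = 0.030).

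Of these 4, Gusb was at 9.90 ± 0.14 in F1 and 9.93 ± 0.07 in F2 (SD, n = 12), a difference of 0.03 ± 0.05 (SE) with a 95% interval from -0.08 to 0.13. Hprt differed by -0.01 ± 0.06, Ppia by 0.05 ± 0.06 and Actb by -0.08 ± 0.07. These differences are relative to the array's own distribution. Before normalization 17 of the 18 probes passed the threshold (68.7% of all), 8 higher in F2 (16.6% of all) and 9 lower (52.1% of all), and 2 had no overlap (17.6% of all). With no scaling, Actb fell by 0.69, Hprt by 0.63, Ppia by 0.56 and Gusb by 0.28 between F1 and F2, beside a median of -0.36 over all probes, and all 4 passed the threshold. With arrays scaled to the 75th percentile of their signals, Actb (-0.34), Hprt (-0.28) and Ppia (-0.21) passed it as lower in F2 and Gusb (0.07) did not.

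The glycolytic enzyme gene Pgk1 (probe A_65_P03442) was at 14.80 ± 0.17 in F1 and 15.84 ± 0.11 in F2, with the highest F1 array at 15.01 and the lowest F2 array at 15.62, so that all F2 arrays lay above all F1 arrays. The difference was 1.04 ± 0.06 (FDR = 6.6e-13), and it was 0.28 (FDR = 0.044) before normalization and 0.63 with scaling to the 75th percentile. The order of the 4 groups for Pgk1 was MD F1, CD F1, MD F2 and CD F2, and within a generation neighbours did not differ past the threshold. The brightest probe of Gapdh rose by 0.23 ± 0.07 (FDR = 0.0050), from 17.78 ± 0.12 to 18.01 ± 0.18, with overlapping arrays. With no scaling it fell by 0.39 and passed the threshold as lower, and with scaling to the 75th percentile it differed by -0.04.

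B2m rose by 0.22 ± 0.08 (FDR = 0.023), from 12.60 ± 0.17 to 12.82 ± 0.21, and was 0.06 (FDR = 0.51) with scaling to the 75th percentile and -0.29 without scaling. The brightest probe of Tbp rose by 0.30 ± 0.06 (FDR = 0.00030), and was at 0.35 with scaling to the 75th percentile and at -0.01 without scaling. The brightest probe of Ywhaz, at 11.15 ± 0.20 in F1 and 12.76 ± 0.28 in F2, rose by 1.61 ± 0.10 (FDR = 4.6e-12), and by 1.17 without scaling. Pgk1 and the brightest Ywhaz probe were higher in F2, past the threshold, with quantile normalization, with no scaling, with the 75th percentile and with the spike-in probes. Under scaling to the spike-in probes all 18 probes passed the threshold as higher in F2 (98.1% of all probes passed, 96.3% higher and 1.75% lower), with differences of 1.51 (Actb), 1.57 (Hprt), 1.64 (Ppia) and 1.92 (Gusb) in the 4 genes that did not pass it after quantile normalization, beside the drop of the spike-in signal given above. Without the spike-in probe that fell most, all 18 still passed as higher, with Actb at 1.10, Hprt at 1.16, Ppia at 1.23 and Gusb at 1.51, beside a median of 1.43 over all probes.

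The pools also differed in sex-linked signal. A sex measure was formed as the difference between Xist and the average of 4 Y-linked genes (Uty, Kdm5d, Ddx3y and Eif2s3y) on the log2 scale, positive where the Y-linked genes were higher. It ran from -2.32 to 0.11 over the F1 arrays and from -7.69 to 7.63 over the F2 arrays. Its medians were -1.98 in CD F1, -1.54 in MD F1, 6.00 in CD F2 and 7.08 in MD F2. The means of the 2 F2 groups were 1.85 (CD F2) and 4.48 (MD F2). The sex-linked signal thus shifted along with generation and was not equal between the diet groups, and the labels give no sex. Hprt and Pgk1 are X-linked. With this measure as a covariate the difference between generations was 0.06 (FDR = 0.42) for Hprt and 0.99 (FDR = 3.0e-11) for Pgk1.

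**Figure D2:**
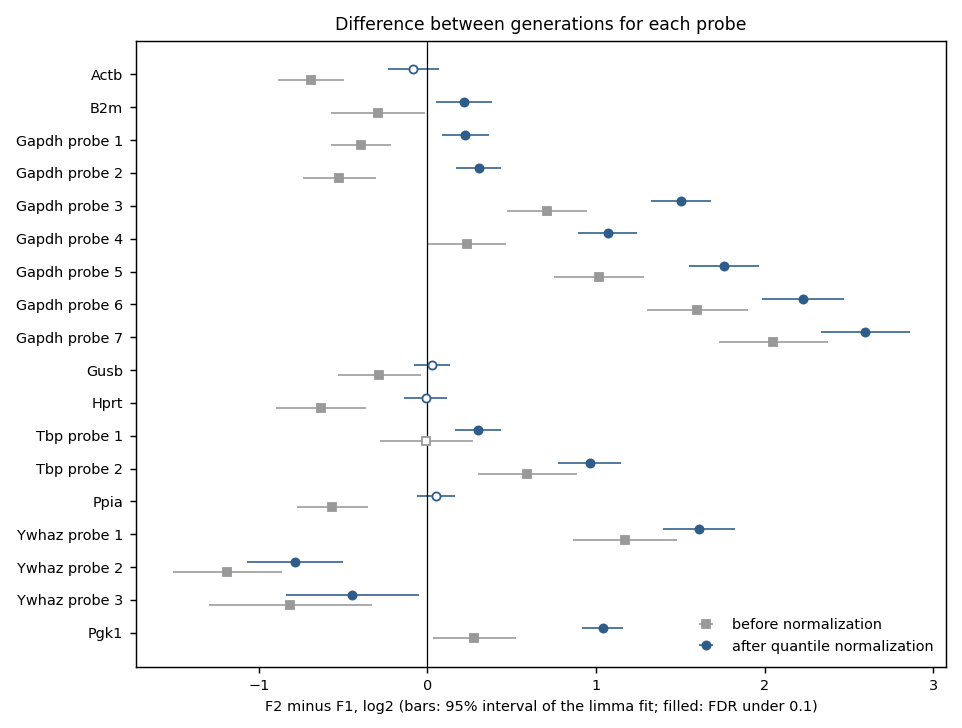
Difference between generations, F2 minus F1 on the log2 scale (x axis), for each of the 18 probes, before (grey squares) and after (blue circles) quantile normalization; bars are 95% intervals of the limma fit over 24 arrays, and filled symbols passed an FDR under 0.1. The 7 Gapdh probes spread from 0.23 to 2.60 after normalization, and the 3 Ywhaz probes lie on both sides of 0.

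Probes of the same gene gave unequal differences between generations. The 7 Gapdh probes, in order of their mean signal, rose in F2 by 0.23, 0.30, 1.50, 1.07, 1.76, 2.22 and 2.60 after normalization, and all 7 passed the threshold. With scaling to the 75th percentile the first 2 were at -0.04 and -0.17 and the dimmest at 2.41, and with no scaling they were at -0.39, -0.52 and 2.05. The dimmest (A_55_P1994258) was at 11.79 ± 0.24 in F1 and 14.39 ± 0.37 in F2, and all F2 arrays were above all F1 arrays. All 7 probes carry the same RefSeq accession. The probe sequences were not used here, so where on the transcript each probe lies, and whether it also matches processed copies of Gapdh elsewhere in the genome, was not examined.

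The ratio of 2 Gapdh probes within an array needs no scaling between arrays. The brightest minus the dimmest probe was 6.09 ± 0.36 in F1 (range 5.56 to 6.96) and 3.64 ± 0.30 in F2 (range 3.11 to 4.06) on the log2 scale. The ranges of the generations did not overlap for this pair, and for 18 of the 21 pairs of Gapdh probes in all. These 21 pairs are formed from 7 probes and are not independent. No such share was computed over the probe pairs of all genes. By group, the same ratio was 5.96 ± 0.24 in CD F1, 6.21 ± 0.44 in MD F1, 3.53 ± 0.34 in CD F2 and 3.75 ± 0.21 in MD F2 (SD, n = 6). The diet groups overlapped for all 21 pairs in both generations.

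Ywhaz probes disagreed in direction. The brightest rose by 1.61 in F2, whereas A_55_P1987245 fell by 0.78 (FDR = 2.5e-05) and A_52_P225260 fell by 0.44 (FDR = 0.045), or by 0.62 (FDR = 4.0e-06) without MD F1 replicate 6, and the signs were the same with the 75th percentile and with no scaling, while under the spike-in scaling all 3 were higher in F2. The first minus the second of these probes was -0.78 ± 0.46 in F1 and 1.58 ± 0.39 in F2, and the ranges did not overlap. Of the 3 pairs of Ywhaz probes, only this 1 had no overlap between generations. On A_52_P225260, MD F1 replicate 6 was at 9.55 after normalization while the other MD F1 arrays lay between 11.45 and 11.97. The 2 Tbp probes both rose after normalization, by 0.30 and 0.96 (-0.01 and 0.59 with no scaling), and their ratio overlapped between generations.

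Among the 3486 genes with at least 2 probes, the median range of the difference between generations over the probes of a gene was 0.64. The range was 2.37 for Gapdh and 2.40 for Ywhaz, at the 96.6 and 96.9 percentiles of these genes, and 0.66 for Tbp, at the 51.4 percentile. Gapdh has more probes than most genes, which widens its range. Within groups the probes moved together to different degrees. In deviations from group means over 24 arrays, Pearson's r between Gapdh probes lay between 0.19 and 0.95 with a median of 0.73. That between Ywhaz probes lay between 0.22 and 0.71, and that between the Tbp probes was 0.27, where the points share arrays and normalization. By generation, with group means kept, r between Ywhaz probes lay between 0.38 and 0.85 in F1 and between -0.11 and 0.14 in F2. In MD F1 all 3 Ywhaz probes were lowest in replicate 6. The values of r without that array were not computed, so the higher r in F1 may rest on it.

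**Figure D3:**
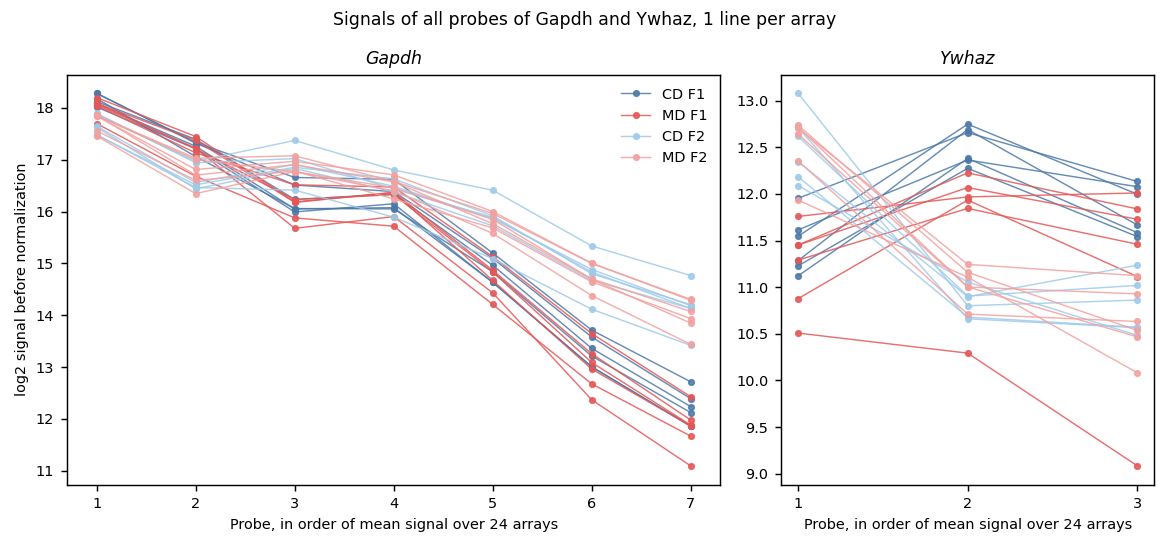
Log2 signal before normalization (y axis) of the 7 Gapdh probes (left) and the 3 Ywhaz probes (right), in order of mean signal, with 1 line per array coloured by group. F1 lines for Gapdh fall steeply towards the dimmest probe, by 6.09 on average, and F2 lines by 3.64; for Ywhaz the lines of the generations cross.

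Normalization narrowed the spread of every reference probe, by unequal amounts. The pooled SD within groups fell in 18 of 18 probes, beside 94.5% of the 23742 probes well above background on all arrays. It fell by 57.4% for Gusb (0.27 to 0.12), 55.6% for Hprt (0.31 to 0.14), 52.9% for Tbp, 48.8% for Pgk1 and 46.6% for Ppia, beside a median of 39.9% over all those probes. It fell by 9.13% for Actb (0.19 to 0.17) and 10.6% for Gapdh (0.16 to 0.15). Before normalization 1.73% of those probes had a smaller SD than Actb and 0.291% a smaller one than Gapdh, and after it 42.3% and 27.9% did.

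Gusb, Hprt and the dimmer Tbp probe are printed 10 times on each array. The SD between the spots of 1 array had a median of 0.06 for Gusb and 0.07 for Hprt, below the SD between arrays of a group after normalization. For the dimmer Tbp probe these were 0.11 and 0.22.

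Over all 24 normalized arrays Gusb had an SD of 0.11, and 1.36% of those probes had a smaller one. Ppia followed with 0.13 (3.51%) and Hprt with 0.14 (6.73%), whereas 79.3% of probes had a smaller SD than Pgk1 (0.55) and 93.2% a smaller one than Ywhaz (0.86). Gusb and Hprt values are averages of 10 spots, which lowers the part of an SD that arises between spots. Ppia has 1 spot, and only 399 of the 39429 probes have more. The order of Gusb and Ppia with equal numbers of spots was not computed. The 5 genes with the smallest SD over 24 arrays were Sipa1, Stard3, Atg4d, Ciao3 and Slc2a8, with SDs from 0.06 to 0.07. They were selected as the smallest of all, so that their SDs are lower than a new measurement would give.

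The pairwise stability value of a gene is the mean SD of its log2 ratio to each of the 8 other genes, taken before normalization, and is independent of the scale of the array. As a mean over the 4 groups it was lowest for Ppia (0.19 ± 0.02, SD over 4 groups) and Gusb (0.19 ± 0.05), followed by Hprt (0.20), Tbp (0.21), Pgk1 (0.21), Gapdh (0.21), B2m (0.23) and Actb (0.23), and highest for Ywhaz (0.29 ± 0.12). Neighbours in this order, Ywhaz and Actb included, differed by less than the larger of their SDs over groups. Gusb and Hprt enter as averages of 10 spots, which lowers the spot part of their values. Without the 3 arrays named above Gusb (0.18), Pgk1 (0.18) and Ppia (0.19) had the lowest values, and Ywhaz (0.27) stayed the highest. The place of a gene also changed from group to group. Gusb was first in CD F1 and MD F2 but sixth in MD F1, Pgk1 was first in CD F2 and eighth in MD F1, and Ppia was first in MD F1 and eighth in CD F1.

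Over all 24 arrays together, where differences between generations enter, the value was 0.31 for Gusb, 0.33 for Gapdh, 0.34 for B2m and Ppia, 0.35 for Tbp, 0.38 for Hprt, 0.41 for Actb, 0.43 for Pgk1 and 0.82 for Ywhaz. The Ywhaz value is that of the probe that is its brightest only through F2. The pair with the steadiest ratio over 24 arrays was Hprt and Ppia (SD 0.15), and the least steady was Actb and Ywhaz (SD 0.99).

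**Figure D4:**
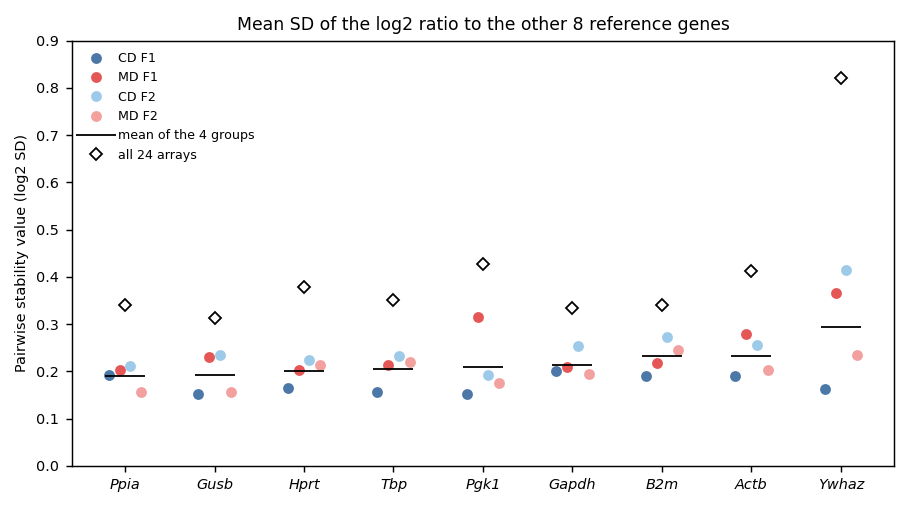
Pairwise stability value (y axis, SD on the log2 scale, lower is steadier) of each reference gene in each group of 6 arrays (coloured points), as the mean of the 4 groups (bars), and over all 24 arrays (open diamonds). Genes are in order of the mean of groups, from Ppia at 0.19 to Ywhaz at 0.29, and the diamond of Ywhaz stands at 0.82.

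Scaling each array to a single reference gene, as is done in quantitative PCR, changed how many probes differed between MD F1 and CD F1. With the signal of Actb subtracted from every probe, 5915 of 39428 probes passed the threshold (15%), of which 5903 were lower in MD F1. With Gapdh the count was 1394, with Ywhaz 10, with Tbp 5, with B2m 3, with Gusb 1, and with Hprt, Ppia or Pgk1 it was 0, where between 2379 and 5572 probes had an unadjusted p under 0.05. The mean of the 9 genes gave 9 and quantile normalization 11. The spike-in probes gave 2032, of which 2029 were lower in MD F1, and 885 without the spike-in probe that fell most between generations. The median difference over all probes was -0.22 with Actb and 0.09 with Hprt.

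These counts rested on few arrays. With Actb the count was 1489 without CD F1 replicate 2 and 9914 without MD F1 replicate 6. With Gapdh it was 2 without CD F1 replicate 4 or MD F1 replicate 2 and 3614 without MD F1 replicate 4. With Hprt it was 3591 without CD F1 replicate 1, with Tbp 2544 without CD F1 replicate 5, and with the mean of the 9 genes 472 without MD F1 replicate 6. With Pgk1 it was 0 in all 12 such fits. With quantile normalization it was 0 in 9 of them and 152 without MD F1 replicate 6. In F2 no probe passed with 8 of the 9 genes, and 1 did with Gapdh.

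The choice of reference gene also set the size of single differences. For Mat2a (probe A_51_P500344), which encodes the catalytic subunit of the enzyme that makes S-adenosylmethionine in most tissues outside the liver, the difference between MD F1 and CD F1 was -0.54 ± 0.15 (SE; FDR = 0.050) with Actb, -0.47 ± 0.12 (FDR = 0.090) with Gapdh, -0.38 ± 0.14 with B2m, -0.36 ± 0.10 with Gusb and -0.23 ± 0.10 (FDR = 0.35) with Hprt. It was negative with all 9 genes and passed the threshold with 2. For Kcnmb2 (probe A_55_P2007761), an accessory subunit of a calcium-activated potassium channel, the difference ran from -1.16 with Actb to -0.85 with Hprt, and it also passed the threshold with 2, Actb (FDR = 0.011) and Gapdh (FDR = 0.062). The MD F1 and CD F1 arrays of Kcnmb2 did not overlap with any of the 9 genes, and those of Mat2a did not with 2 of 9, beside 0.436% (Pgk1) to 5.89% (Actb) of all probes. Both genes were taken because earlier results of these data named them, so that their differences are described here only for the effect of the scale.

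**Figure D5:**
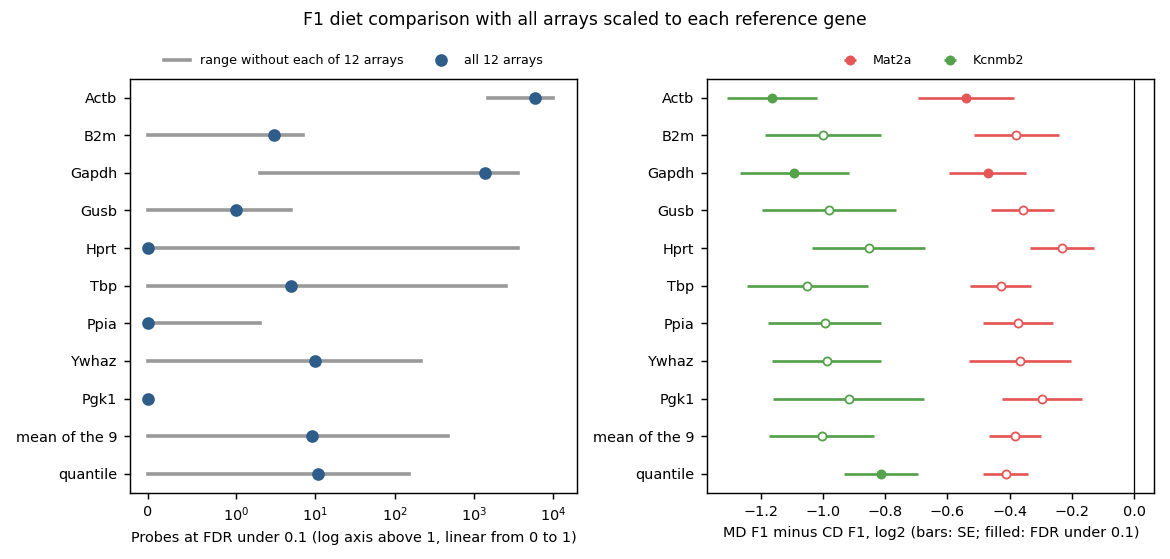
Left, number of probes at an FDR under 0.1 between MD F1 and CD F1 (x axis, logarithmic above 1 and linear from 0 to 1) with arrays scaled to each reference gene, to their mean or by quantile normalization; points are fits to all 12 arrays and grey lines the range over 12 fits without 1 array, from 0 to 152 for quantile normalization. Right, log2 difference of Mat2a and Kcnmb2 under the same scalings with SE, from -0.54 to -0.23 and from -1.16 to -0.81, where filled points passed the threshold.

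Other genes of the same pathways were read from lists, each gene by its brightest probe. In the diet comparisons after normalization no gene of these lists passed the threshold in F1 or F2. Between generations the direction of most lists depended on the scale, and all differences share slides and scan with the generation. Under the spike-in scaling every gene of these pathway lists was higher in F2, beside a median of 1.84 over all probes, so that the counts that follow compare the other 3 scales. Of all probes 35.2% were higher and 35% lower after quantile normalization, 35.8% higher and 38.3% lower with the 75th percentile (74.1% in all), and 16.6% higher and 52.1% lower with no scaling. A count below that is near these shares says nothing of its list. The shares cover all probes, of which 23742 were well above background on all arrays, whereas nearly all genes of these pathway lists were. No share was computed over probes of like brightness, so a count away from the shares need not be particular to its list.

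Of 14 further glycolytic genes 12 were higher in F2 and 0 lower after quantile normalization (35.2% and 35% of all probes), 8 higher and 4 lower with the 75th percentile (35.8% and 38.3%), and 2 higher and 7 lower with no scaling (16.6% and 52.1%). Pkm, which encodes pyruvate kinase, was higher on all 3 scales, at 1.14 ± 0.13 (SE) after quantile normalization, 0.77 with the 75th percentile and 0.42 with no scaling. Of 6 other 14-3-3 genes 5 were higher and 0 lower after quantile normalization, 2 higher and 1 lower with the 75th percentile, and 0 higher and 4 lower with no scaling. Ywhag was at 0.91 ± 0.08, 0.56 and 0.20 on these scales, and the last did not pass.

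Of 13 genes of the actin cytoskeleton 10 were higher and 2 lower after quantile normalization, 5 higher and 5 lower with the 75th percentile, and 3 higher and 8 lower with no scaling. Cfl1, which encodes the actin-severing protein cofilin, was at 1.19 ± 0.09, 0.72 and 0.36. Of 14 lysosomal hydrolase genes 11 were higher and 1 lower, then 7 and 4, then 5 and 8, with Glb1, the gene of a beta-galactosidase, at 0.99 ± 0.07, 0.97 and 0.62. In MHC class I and its antigen loading 5 of 9 genes were higher and 1 lower, then 6 and 1, then 4 and 4, with the peptide transporter gene Tap1 at 2.23 ± 0.17, 2.09 and 1.74.

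Of 16 genes of TFIID and basal transcription 4 were higher and 10 lower after quantile normalization (35.2% and 35% of all probes), 3 and 11 with the 75th percentile (35.8% and 38.3%), and 0 and 13 with no scaling (16.6% and 52.1%). Taf7, a TFIID subunit, was at -1.35 ± 0.09, -1.32 and -1.67. Of 8 other cyclophilin genes 2 were higher and 5 lower, then 2 and 5, then 2 and 6, with Ppif, the mitochondrial cyclophilin, at 1.84 ± 0.09, 1.87 and 1.51. Of 8 purine genes 4 were higher and 3 lower, then 3 and 4, then 0 and 5, close to the shares of all probes on the first and the second scale, with adenosine deaminase (Ada) at -0.94 ± 0.16, -0.91 and -1.26.

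Of 35 other commonly used reference genes 31 passed the threshold after quantile normalization (70.2% of all probes), 22 higher and 9 lower in F2. With the 75th percentile 12 were higher and 17 lower (74.1% of all probes passed), and with no scaling 6 and 25 (68.7%). The median of this list was 0.21 after quantile normalization, beside 0.22 for the 9 genes and 0.02 for all probes.

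The reference genes followed each other only in part. In deviations from group means over the 24 normalized arrays, Pearson's r was 0.65 between Actb and Gapdh, 0.62 between Gapdh and Ywhaz, 0.67 between Gusb and Pgk1, 0.60 between Hprt and Tbp, and -0.52 between Gapdh and Hprt. The 2 glycolytic genes Gapdh and Pgk1 had an r of -0.26. Outside the 9 genes, the closest of 13773 genes by the same measure was Stum for Actb (0.84), Rundc3a for Gapdh (0.88), Tmem176b for B2m (0.82), Pdgfrl for Gusb (0.83), Mrps14 for Hprt (0.89), Nup205 for Tbp (0.93), Stt3a for Ppia (0.77), Sbk1 for Ywhaz (0.92) and Alkbh1 for Pgk1 (0.79). Each is the highest of 13773 values, so that its size is a description of these arrays.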

How the data were processed

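Hippocampal RNA pools of 24 samples were measured on one-colour Agilent arrays. Each array was assigned to its group and numbered from its title. The authors' deposited files hold the output of Feature Extraction (version 10.7.3.1 in the file headers), from which the processed intensity was used, background-subtracted, linear and not scaled between arrays. The deposited value table, linear intensities quantile-normalized within each generation, served as an alternative.

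Irregular spots were left out, repeated spots were averaged as log2 intensities, and arrays were quantile-normalized within a generation, or all 24 together for generation and interaction. limma 3.58.1 in R 4.3.3 was fitted over all probes (39429 in F1, otherwise 39423, with at least 2 values per group) with group means as terms, with the threshold set at an FDR of 0.1 after Benjamini-Hochberg adjustment. The fit was tested on simulated data. "Before normalization" means the same fit without scaling between arrays. Identifiers were matched to RefSeq symbols (26055 probes, 19751 symbols). The probe with the highest mean signal over all 24 arrays before normalization stands for a gene. For Ywhaz this probe had the lowest mean of the gene's probes in F1.

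The genes named are the 9 reference genes with all probes, Mat2a and Kcnmb2 under scaling to a reference gene, for each reference gene its most correlated gene, the 5 genes with the smallest SD, and up to 3 genes per list with the largest called change. Members, lists and tests were chosen with earlier results of these data known. The number of arrays limits precision.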

Additional observations from a re-analysis of the deposited data

Results flagged for a closer look

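Among 72 sets of 6 arrays (18 probes in 4 groups), 4 held an array whose gap to the nearest other array exceeded the 95% limit of Dixon's test, where chance alone gives about 1 in 20 sets, or 3.6. On the normalized log2 scale these were Actb in CD F1 replicate 4 at 18.72, with the other arrays between 18.35 and 18.43, and the brightest Tbp probe in CD F1 replicate 5 at 10.05, with the others between 9.73 and 9.84. The other 2 were Ywhaz probes in MD F1 replicate 6, A_55_P1987245 at 10.69, with the others between 11.93 and 12.27, and A_52_P225260 at 9.55, with the others between 11.45 and 11.97. The third Ywhaz probe was also lowest in that array, at 10.90. No reference probe passed the threshold for the diet by generation interaction.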

How the results depend on the processing

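No reference gene, by its brightest probe, passed the threshold for diet or for the interaction under the alternatives run, except before normalization in F1 with 1 array left out, where Hprt passed in 3 of 12 fits and Pgk1 in 1. In F1, 198 of 234 values kept their direction and side of the threshold and 36 changed sign, in F2 223 of 243 and 20, and for the interaction 91 of 108 and 17. Between generations 85 of 108 did, 13 changed sign, 9 gained and 1 lost a call. The cause of these changes was not tested.

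In log2, the values with another sign in F1 were Actb -0.061, B2m -0.22, Gapdh -0.13, Gusb -0.24, Tbp -0.17 and Ywhaz -0.23 with no scaling, Ppia 0.038 with the 75th percentile, and B2m -0.11, Gapdh -0.015, Gusb -0.13, Tbp -0.057 and Ywhaz -0.12 with the spike-in probes. They were Actb -0.0017 and Gapdh -0.020 with normexp background correction, B2m -0.0059 with spots normalized before averaging, B2m -0.00026 in the authors' value table, B2m -4.0e-05 with irregular spots kept, Gusb -0.040 with the sex measure as a covariate, and Gusb -0.011 without the 3 arrays that stand apart. Without the spike-in probe that fell most they were B2m -0.035, Gusb -0.056 and Ywhaz -0.047 in F1, Gusb -0.027 and Tbp -0.039 in F2, Actb 1.10 and Hprt 1.16 between generations, and Actb 0.053 and Gusb -0.029 for the interaction. In F2 they were Gusb -0.045 and Tbp -0.057 with no scaling, Tbp -0.011 and Pgk1 0.016 with the 75th percentile, Hprt 0.00099 and Pgk1 0.034 with the spike-in probes, Tbp -0.0081 with normexp, and Ywhaz -0.062 with the sex measure. Between generations they were B2m -0.29, Gapdh -0.39, Gusb -0.28, Tbp -0.0055 and Ppia -0.56 with no scaling, Gapdh -0.039 and Ppia -0.21 with the 75th percentile, Actb 1.51 and Hprt 1.57 with the spike-in probes, Hprt 0.061 with the sex measure and Hprt 0.015 without the 3 arrays. For the interaction they were B2m -0.11, Gusb -0.20 and Tbp -0.12 with no scaling, Actb 0.10 and Gapdh 0.021 with the 75th percentile, B2m -0.059, Gusb -0.15 and Tbp -0.064 with the spike-in probes, Ywhaz 0.061 with the sex measure, and Gapdh 0.0014, Gusb -0.017 and Ywhaz 0.052 without the 3 arrays, and Actb 0.025, Gusb -0.032 and Ywhaz 0.085 without MD F1 replicate 6. Leaving out 1 array at a time, F1 values ran from -0.062 to 0.050 for B2m, -0.028 to 0.054 for Gapdh, -0.011 to 0.069 for Gusb and -0.044 to 0.12 for Ywhaz, and F2 values from -0.0060 to 0.047 for Gusb, -0.058 to 0.068 for Tbp and -0.077 to 0.10 for Ywhaz.

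The count of reference probes called in F1 was 1 with no scaling and 1 with the spike-in probes, in place of 0, and before normalization it ran from 0 to 3 when 1 array was left out. Over all probes 11 passed in F1, and 0 to 152 with 1 array left out. The 152 came without MD F1 replicate 6, the only F1 array of the 3, so it is also the fit without the 3 arrays. The count was 70 without dim probes, 13 in the authors' value table, 5 with normexp and 4 with the 75th percentile. It was 0 with slide as a block, 0 with the sex measure and 7952 with no scaling. With the spike-in probes it was 2032 (885 without the one that fell most). With the lh or rh code as a covariate no reference gene changed its call or its direction in F2. Scaled to Actb, 5915 passed in F1, and 1489 to 9914 with 1 array left out, where the 9914 came without MD F1 replicate 6. Scaled to the other genes the count was 3 (B2m), 1394 (Gapdh), 1 (Gusb), 0 (Hprt, Ppia, Pgk1), 5 (Tbp) and 10 (Ywhaz). It was 9 with the mean of the 9. With Gapdh it was 1633 without MD F1 replicate 6, and in F2 it was 1. With all probes of a gene averaged, Gusb came first and Tbp next in stability, and Ywhaz stayed last. Without the 3 arrays Gusb came first and Pgk1 next. After quantile normalization Ppia and Gusb kept their places, while Gapdh moved from rank 6 to 3 and Tbp from rank 4 to 7.

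With the replicate number as a block, 0 reference probes were called in F1, 0 in F2, 14 between generations and 0 for the interaction, and the calls over all probes in F1 went from 11 to 0. Deviations of same-numbered arrays correlated at -0.05 to 0.20 in F1 and -0.17 to 0.19 in F2, and 3 of 6 MD F1 arrays and 0 of 6 CD F1 arrays correlated best with their own number, so that the numbers were not taken to pair arrays. Normexp on the mean signal was not run and used the median signal instead, and the value table, normalized within generations, was not used across them. Normexp on the median signal, the averaging order, the fits without arrays before normalization or with scaling to a reference gene, the spike-in scaling without 1 probe, the generation and interaction fits without MD F1 replicate 6, and the list scalings were added after seeing the data. With 6 arrays per group, small diet differences were not detectable.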
